A study of Mus musculus with 25 samples.

Results

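The comparison was between mice lacking both isoforms of the glucose-sensing transcription factor ChREBP (total ChREBP-KO mice, null for the gene Mlxipl) and the wild-type mice of the same line. Members were chosen by array title and comprised 5 total ChREBP-KO arrays and 7 total ChREBP-WT arrays, 12 of the 25 arrays in the series, with the other 13 coming from a line lacking only the ChREBPβ isoform and from its own wild types. All animals were C57BL6/J males, and RNA came from perigonadal white fat. Mice were fasted for 24 h and then refed for 18 h with food and 20% glucose in the drinking water, so that both genotypes were studied in the fed, glucose-loaded state. The deletion was present throughout the body, so that the loss of ChREBP was not restricted to fat cells, and only 1 sex, 1 depot and 1 nutritional state were measured. Ages are not given in the sources used here.

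ChREBP is activated by metabolites of glucose. With its partner Mlx it binds DNA near genes for glycolysis and for de novo lipogenesis, the making of fatty acids from sugar. The α isoform responds to glucose, and the shorter β isoform is itself transcribed in response to α. In white fat, glucose enters through the insulin-regulated transporter GLUT4 (Slc2a4), passes through glycolysis to pyruvate, and reaches fatty acids by way of citrate. Glycerol 3-phosphate, which fat cells need to esterify fatty acids, is drawn from the same glycolytic chain or remade from pyruvate by glyceroneogenesis.

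Each array was a single-color hybridization, so a level is a quantile-normalized log2 intensity and a difference is KO minus WT on that scale. Median intensity ran from 84 to 123 over the 12 arrays over a local background of 15 to 22. Spots marked by the scanner software as clearly brighter than background made up 73.3% to 77.2% of each array. Wild-type replicate 2 stood apart on the first principal component, at -104.7 when the other 11 arrays lay between -28.34 and 41.8. The mean of the liver marker genes was 8.44 to 9.39 on the KO arrays and 8.64 to 13.54 on the wild-type arrays, with the highest values in wild-type replicates 2 (13.54), 6 (11.96) and 3 (11.02). The epididymis marker mean was 11.67 in wild-type replicate 2, 6.20 to 7.50 on the other 6 wild-type arrays and 5.76 to 6.86 on the KO arrays. The part of this organ RNA in the differences was not tested directly, and counts of most gene groups are given below without these 3 wild-type arrays where the count changes. Leaving out arrays can itself lower a count, and this was not separated from organ RNA. Without KO replicate 1 alone, 1992 genes were called by any probe, against 2836 on all arrays. Shares over all genes given below are from all arrays. Of 194 named genes, 38 lost their call without these arrays, and 40 did so with the liver marker level as a covariate. Such losses are marked below for only a few genes.

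By limma, with wash batch as a term and all 25 arrays sharing 1 estimate of spread, 2836 of 26420 genes had at least 1 probe with an adjusted p below 0.05, which is 10.7% of genes. Of these, 1074 were lower (4.07%) and 1768 were higher (6.69%) in KO fat, including 6 genes with probes called in both directions. The excess of higher genes was not seen without wild-type replicates 2, 3 and 6, with 924 higher and 966 lower. Nor was it seen with the liver marker level as a covariate, with 956 higher and 989 lower. With the brightest probe standing for each gene, 948 genes were lower (3.59%) and 1488 were higher (5.63%), or 9.22% in all, and gene groups below are counted in this way. Larger changes were mostly decreases. Among the called genes 305 were at least 2-fold lower and 101 at least 2-fold higher, and 63 were at least 4-fold lower against 14 at least 4-fold higher. By any probe, 996 genes (3.77%) passed both the threshold and a 1.5-fold change. The median difference over all genes was 0.02. Whether the replicates were housed or extracted separately was not analysed, so the p-values measure the spread between these samples. In bulk tissue, fewer cells of a type and less RNA per cell cannot be told apart.

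Mlxipl itself, which encodes ChREBP, was read by 3 probes. On the brightest, at chr5:135613705-135613764 (mm9), KO replicates 1, 2, 3, 4 and 7 read 14.25, 14.25, 14.29, 14.08 and 14.19, and the 7 wild-type arrays ran from 15.64 through a median of 16.01 to 16.28. The KO arrays were therefore all below the wild-type arrays, and the level fell by 1.75 (SE 0.15, 3.36-fold, adjusted p = 3.3e-08 by limma). A second probe was 0.66 lower (adjusted p = 0.0011), and the third gave a difference of 0.08 (adjusted p = 0.69). Where these probes lie relative to the deleted part of the gene was not analysed here, so a signal that persists at a probe does not measure intact transcript. All 4 wash batches held both genotypes, and within them the brightest Mlxipl probe differed by -1.77, -1.59, -1.84 and -1.71.

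**Figure D1:**
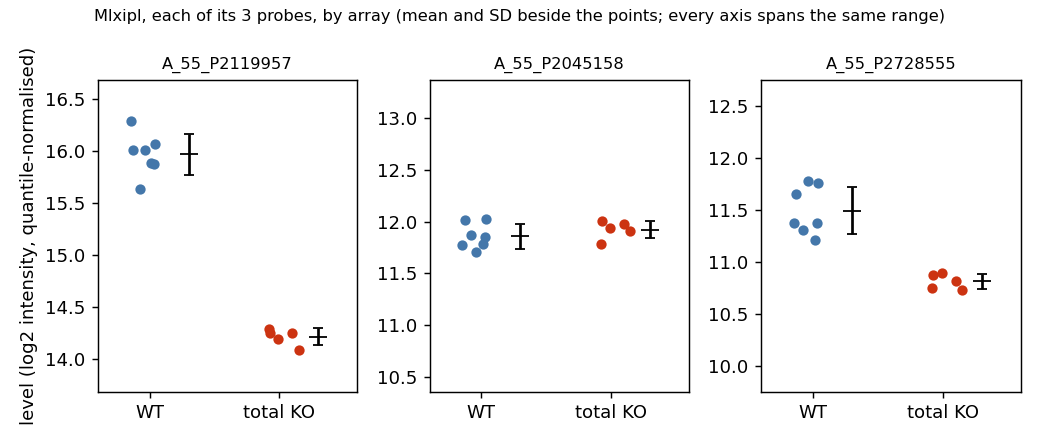
Levels (quantile-normalized log2 intensity) of the 3 Mlxipl probes, with a point per array for 7 wild-type and 5 total ChREBP-KO arrays, the mean and SD beside them, and axes of equal span. The KO arrays lie below every wild-type array on A_55_P2119957 and A_55_P2728555 and overlap them on A_55_P2045158.

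Of the 16 tested genes of the ChREBP network and its arrestin relatives, 3 were lower and 2 higher (2 and 1 without wild-type replicates 2, 3 and 6). Besides Mlxipl, the dimerization partner Mlx was lower by 0.57 (SE 0.14, adjusted p = 0.013), a call that was lost without KO replicate 4 or without wild-type replicates 2, 3 and 6. Max, the shared partner of the Myc and Mxd proteins, fell by 0.25 (SE 0.05, adjusted p = 0.0023). The arrestin-domain gene Arrdc3 rose by 0.51 (SE 0.12, adjusted p = 0.0074). Txnip, a long-known glucose-induced arrestin gene, differed by -0.18 (SE 0.11, adjusted p = 0.41), with KO arrays at 15.40 to 15.60 overlapping wild types at 15.49 to 15.76.

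ChREBP binds a pair of E-box-like sequences, of which CACGTG is a full E-box. A pair of such sequences 5 bases apart was found in the promoters of 19 of 14766 tested genes. It was found in 2 of 522 lower and 1 of 906 higher genes, too few to compare. The shares below are therefore of the single E-box, which is not particular to ChREBP. CACGTG reads alike on both strands. It was present in 13 of the 78 lower genes of the lists and naming rules that had a RefSeq promoter (250 bases before to 50 after the start, GRCm38.p6), or 16.7%, and in 13 of 95 such higher genes, or 13.7%. Counted in the same way per gene, the share was 10.2% over the 14766 tested genes with a promoter (1503 genes) and 9.89% over those not called; counted per promoter, it was 7.15% of all 32851. The list genes were chosen with their values known. Over all called genes, which were not picked by hand, the shares were 13.4% for lower (70 of 522) and 12.6% for higher (114 of 906). Only 55.1% of lower and 60.9% of higher genes had a promoter, as did 14766 of the 26420 tested genes. All these shares therefore cover only part of the genes, and the differences between them were not tested. The windows below show the motif in capitals, with the bases around it, for ChREBP's own gene, for 2 lower genes in the pathways described next, and for 1 higher gene. The Mlxipl window (chr5:135089762-135089827, plus strand) has its motif 98 bases before the start, that of Fgf21 (chr7:45615505-45615570, minus strand) 50 bases, that of Ldha (chr7:46845726-46845791, plus strand) 48 bases and that of Insig1 (chr5:28071281-28071346, plus strand) 101 bases. A match in these letters is a description and does not show binding.
Mlxipl: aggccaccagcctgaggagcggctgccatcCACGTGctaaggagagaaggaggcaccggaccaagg
Fgf21: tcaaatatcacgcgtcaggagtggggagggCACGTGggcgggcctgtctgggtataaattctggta
Ldha: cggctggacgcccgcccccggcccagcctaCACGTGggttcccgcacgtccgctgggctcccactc
Insig1: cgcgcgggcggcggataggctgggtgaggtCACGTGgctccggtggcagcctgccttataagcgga

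**Figure D2:**
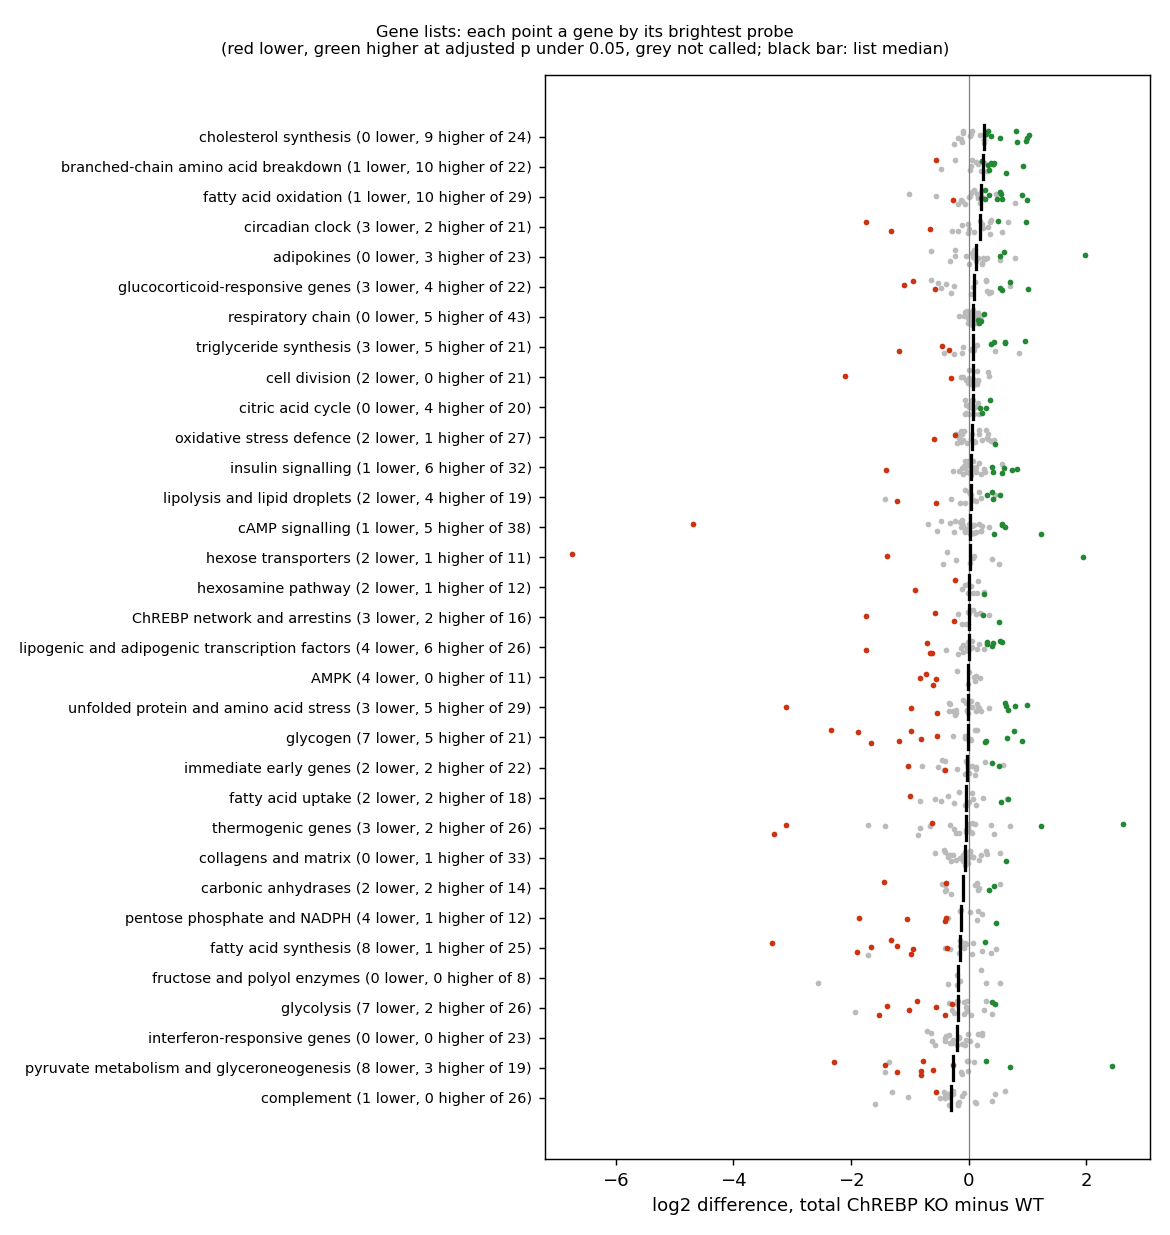
Log2 differences of every tested gene in 33 pathway lists, by the brightest probe, with red for lower, green for higher and grey for the remainder (threshold 0.05 on the adjusted p), with a black bar at each list's median. Pyruvate metabolism, glycolysis and fatty acid synthesis have medians below 0, and cholesterol synthesis, branched-chain amino acid breakdown and fatty acid oxidation have the highest medians.

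Sugar transport changed most at the fructose transporter GLUT5, Slc2a5. Its probe (chr4:149517775-149517834, mm9) read 6.11, 5.64, 4.93, 7.23 and 4.42 on the KO arrays and 11.82, 12.40 and 12.91 at the lowest, median and highest wild-type array. The probe was well above background on 7 of 7 wild-type and 4 of 5 KO arrays, and KO values near the background make the size of the change imprecise. The gap between groups was wider than their spread, and the level fell by 6.74 (SE 0.38, adjusted p = 1.2e-10), the largest decrease among the genes named here. Within the 4 wash batches the Slc2a5 difference was -6.07, -6.89, -7.98 and -6.38. The insulin-regulated glucose transporter Slc2a4 read 14.65, 15.10, 14.69, 14.79 and 15.07 against wild types at 16.01 to 16.38, a fall of 1.40 (SE 0.13, 2.63-fold, adjusted p = 1.5e-07). Slc2a13, which carries myo-inositol with protons, moved the other way, from a wild-type median of 9.83 to KO values of 11.24 to 11.97, and rose by 1.95 (SE 0.23, adjusted p = 4.3e-06). Of the 11 hexose transporters tested, only these 3 were called by the brightest probe. None of the 8 fructose and polyol enzymes was called by limma on the brightest probe, with 3 at an unadjusted p below 0.05.

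In glycolysis, 7 of 26 genes were lower, against 3.59% of all genes, and 2 were higher, against 5.63%, with a list median of -0.19. The mean of the list differed by -0.18, -0.45, -0.28 and -0.37 within the 4 wash batches. The counts were 6 and 1 without wild-type replicates 2, 3 and 6. Hexokinase 2, Hk2, which traps glucose in the cell, read 12.86, 12.99, 12.90, 12.57 and 12.67 against wild types of 14.01 to 14.52, and fell by 1.52 (SE 0.13, adjusted p = 3.8e-08). Further down, the liver-type phosphofructokinase Pfkl fell by 0.88 (SE 0.11, adjusted p = 7.9e-06) and Pkm, the pyruvate kinase of most tissues, fell by 1.02 (SE 0.08, adjusted p = 2e-08). Enolase Eno1 fell by 1.39 (SE 0.08, adjusted p = 8.9e-11), with its near-identical copy Eno1b falling by 1.46; probes for the copies may read each other's transcript, so they do not count as independent. Ldha, which turns pyruvate into lactate, fell by 0.56 (SE 0.05, adjusted p = 1.2e-07), and Gpi1 by 0.28 (adjusted p = 0.017), a call lost without KO replicate 2 or 3. Triosephosphate isomerase Tpi1, in contrast, rose by 0.39 (SE 0.08, adjusted p = 0.002).

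Gapdh, often taken as an unchanging control in tissue work, fell by 0.41 on its brightest probe (SE 0.06, adjusted p = 7.6e-05) and by 0.96 to 1.21 on its 6 dimmer probes. The same difference between bright and dim probes occurred for Acly and Acaca, 2 lipogenic genes. The Acly difference was -1.67 on its brightest probe and -2.81 on the other. The Acaca difference was -1.91 on the brightest and -2.31 to -2.86 on 5 others, with 1 more probe near the background at -0.03 (adjusted p = 0.92). For these 3 genes, then, the dimmer probes above background gave the larger differences, and the fold changes of the brightest probes are the smaller of the values measured above background. Acacb went the other way, at -1.23 on its brightest probe and -0.77 and -0.39 on the others.

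In pyruvate metabolism and glyceroneogenesis, 8 of 19 genes were lower and 3 higher (7 and 2 without wild-type replicates 2, 3 and 6), with a median of -0.27. Both subunits of the mitochondrial pyruvate carrier fell, Mpc1 by 0.82 (SE 0.10, adjusted p = 4.1e-06) and Mpc2 by 0.60 (SE 0.10, adjusted p = 0.00024). Core parts of the pyruvate dehydrogenase complex, which commits pyruvate to acetyl-CoA, fell as well: Pdha1 read 13.56, 13.66, 13.69, 13.64 and 13.52 against wild types from 14.78 to 15.19, a fall of 1.43 (SE 0.10, adjusted p = 6.1e-09), Pdhb fell by 1.22 (adjusted p = 1.4e-08) and Dlat by 0.77 (adjusted p = 3e-06). Pdk1, a kinase that switches this complex off, fell by 2.29 (SE 0.14, adjusted p = 4.2e-10), whereas the sister kinase Pdk4, which is induced in fasting, rose by 0.70 (SE 0.12, adjusted p = 0.00054). Pyruvate carboxylase Pcx, which feeds oxaloacetate for citrate and for glyceroneogenesis, fell by 0.81 (adjusted p = 1.6e-06). Pck1, the key enzyme of glyceroneogenesis, read 15.57, 15.69, 15.65, 15.50 and 15.32 in KO fat against wild types of 12.80, 13.09 and 13.73 at lowest, median and highest, and rose by 2.44 (SE 0.32, 5.42-fold, adjusted p = 2.2e-05). Within the wash batches the Pck1 difference was 2.76, 2.55, 1.64 and 2.57.

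**Figure D3:**
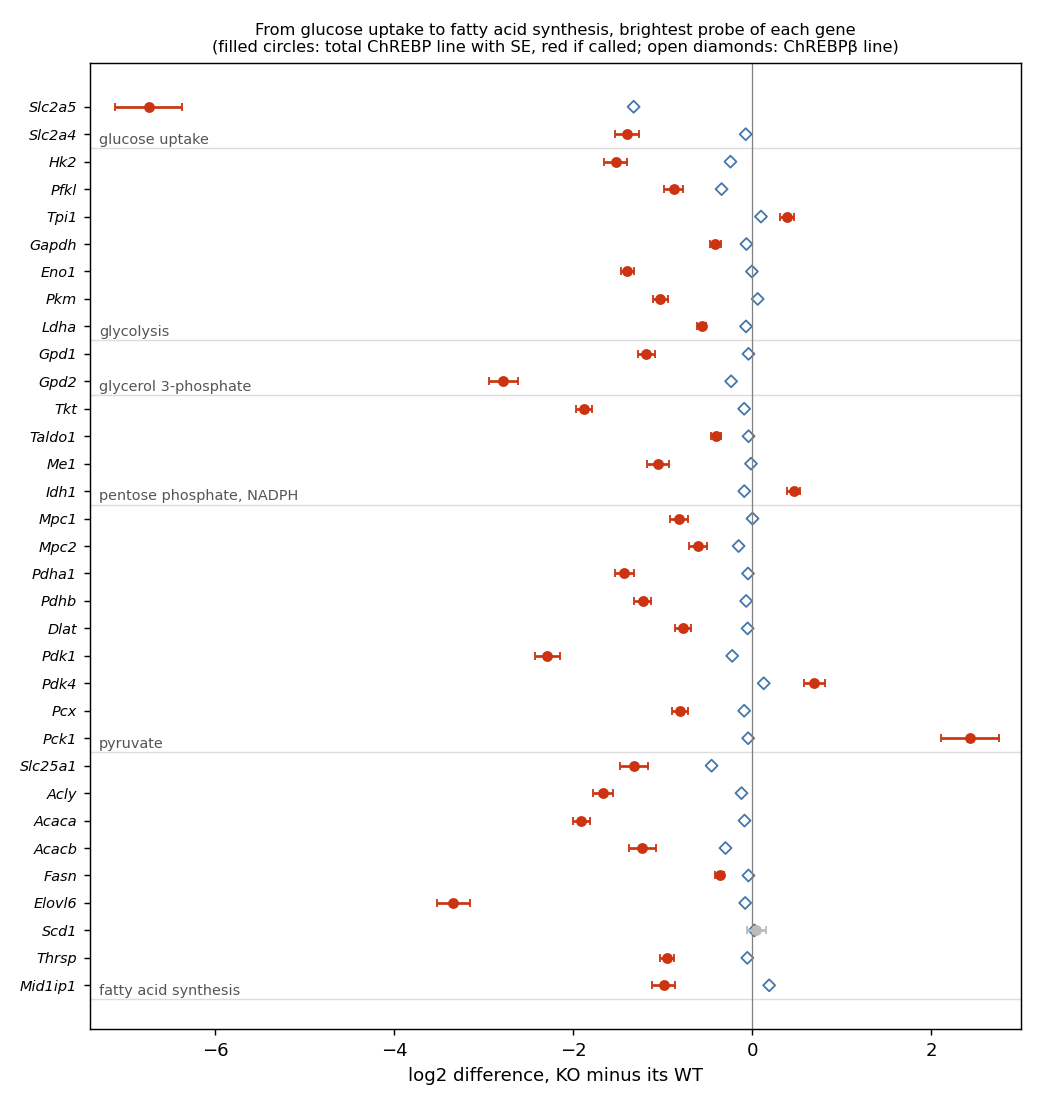
Log2 differences (KO minus its own WT) for genes from glucose uptake to fatty acid synthesis, by the brightest probe. Filled circles with SE bars are the total ChREBP line (red if called), and open diamonds the ChREBPβ line. Slc2a5 lies farthest to the left at -6.74 and Pck1 farthest to the right at 2.44.

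For the pentose phosphate and NADPH genes, 4 of 12 were lower and 1 higher, unchanged without wild-type replicates 2, 3 and 6. Transketolase Tkt read 15.79, 16.09, 15.88, 15.92 and 16.14 against wild types of 17.55 to 18.02 and fell by 1.87 (SE 0.09, adjusted p = 1.2e-11). Malic enzyme Me1, which makes NADPH for lipogenesis, fell by 1.05 (SE 0.12, adjusted p = 2.3e-06), and Taldo1 by 0.40 (adjusted p = 5e-05). Pgd, an NADPH-producing enzyme of the oxidative branch, was lower by 0.39 (adjusted p = 0.015), lost without KO replicate 2. Cytosolic Idh1, also a source of NADPH, rose by 0.47 (SE 0.07, adjusted p = 0.00012).

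Fatty acid synthesis had 8 of 25 genes lower and 1 higher (8 and 0 without wild-type replicates 2, 3 and 6), from the citrate carrier to chain elongation, and its mean differed by -0.62, -0.60, -0.31 and -0.58 within the wash batches. The citrate carrier Slc25a1 fell by 1.32 (adjusted p = 5.2e-06), ATP citrate lyase Acly fell by 1.67 (adjusted p = 2.5e-09), and acetyl-CoA carboxylases Acaca and Acacb by 1.91 (adjusted p = 2.3e-11) and 1.23 (adjusted p = 1.1e-05). Elovl6, which lengthens palmitate to stearate, read 12.10, 11.84, 11.98, 12.02 and 12.36 against wild types of 15.12, 15.36 and 15.62 and fell by 3.34 (SE 0.19, adjusted p = 1.2e-10). Thrsp and Mid1ip1, the Spot 14 pair that modulates acetyl-CoA carboxylase, fell by 0.95 (adjusted p = 4.2e-08) and 0.98 (adjusted p = 1.7e-05). Fatty acid synthase Fasn lay at the ceiling of the normalized scale on all 7 wild-type arrays (18.79) and at 18.32 to 18.46 on the KO arrays, and it fell by 0.36 (SE 0.05, adjusted p = 1.3e-05). No wild-type value above that ceiling could have been recorded on this scale. With arrays scaled to their 75th percentile instead, the difference was -0.28 with an adjusted p of 0.054. The stearoyl-CoA desaturase Scd1 read 17.86 to 18.17 in KO and 17.64 to 18.04 in wild-type fat, a difference of 0.05 (SE 0.10, adjusted p = 0.87), and its second probe gave -0.14 (adjusted p = 0.74).

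Glycerol 3-phosphate enzymes fell with glycolysis. Gpd1, which makes glycerol 3-phosphate, fell by 1.18 (SE 0.09, adjusted p = 1.2e-08) and the mitochondrial Gpd2 fell by 2.78 on its brightest probe (SE 0.16, adjusted p = 1.6e-10). The other Gpd2 probe fell by 2.50. For the rest of triglyceride synthesis the picture was split, with 3 of 21 genes lower and 5 higher (3 and 2 without wild-type replicates 2, 3 and 6). The higher ones included the acyltransferase Agpat9, also named Gpat3, which rose by 0.95 (SE 0.17, adjusted p = 0.00065), and the acyl-CoA synthetase Acsl1, which rose by 0.61 (SE 0.12, adjusted p = 0.0017). Lpin1, a phosphatidate phosphatase, fell by 0.33 (adjusted p = 0.0052) and Agpat3 by 0.46 (adjusted p = 0.00084).

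On the lipid droplet, Plin2 fell and Plin1 rose. Plin2, the perilipin common to many cell types, read 15.23, 15.17, 15.28, 15.16 and 15.91 against wild types of 16.43 to 16.81, and fell by 1.23 (SE 0.12, adjusted p = 1.9e-07). Plin1, the fat-cell perilipin that guards against lipolysis, rose by 0.41 (SE 0.09, adjusted p = 0.0031) and Cidec by 0.40 (adjusted p = 0.010). Over the list, 2 of 19 genes were lower and 4 higher (2 and 2 without wild-type replicates 2, 3 and 6), and the lipases Lipe and Pnpla2 were not among those called. Lipoprotein lipase Lpl, which frees fatty acids from blood triglyceride, rose by 0.55 (SE 0.07, adjusted p = 1.2e-05). Angptl8, listed on the array as Gm6484 and an inhibitor of Lpl, read 15.11, 14.89, 15.16, 13.70 and 15.30 against wild types of 16.29 to 16.80, and fell by 1.75 (SE 0.22, adjusted p = 1e-05). The fatty acid transporter Slc27a1 fell by 1.00 (SE 0.18, adjusted p = 0.00077).

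Glycogen genes moved in both directions, with 7 of 21 genes lower and 5 higher (7 and 3 without wild-type replicates 2, 3 and 6), with a median of -0.01, close to that of all genes. Pygl, the liver-type glycogen phosphorylase (chr12:71291855-71291914, mm9), read 13.34, 13.38, 13.30, 13.54 and 13.75 against wild types of 15.62, 15.84 and 16.05 and fell by 2.34 (SE 0.13, adjusted p = 1.2e-10). The branching enzyme Gbe1 fell by 1.89 (SE 0.14, adjusted p = 7.9e-09) and UDP-glucose pyrophosphorylase Ugp2, which makes the glucosyl donor, by 0.82 (adjusted p = 1.3e-06). Of the phosphatase subunits that steer glycogen synthase, Ppp1r3b fell by 0.98 (adjusted p = 1e-06) and Ppp1r3d rose by 0.91 (adjusted p = 3.5e-06). The brain-type phosphorylase Pygb rose by 0.77 (SE 0.12, adjusted p = 0.00021), and the phosphorylase kinase subunit Phka2 rose by 0.65 (SE 0.11, adjusted p = 0.0005). No array overlapped between the groups for these 7 genes, but they were named from the called members, so this was largely set by the choice. Over the whole list, 11 of 21 genes did not overlap. Across all genes, 3.12% were lower and 4.35% higher without overlap, 7.46% in all.

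**Figure D4:**
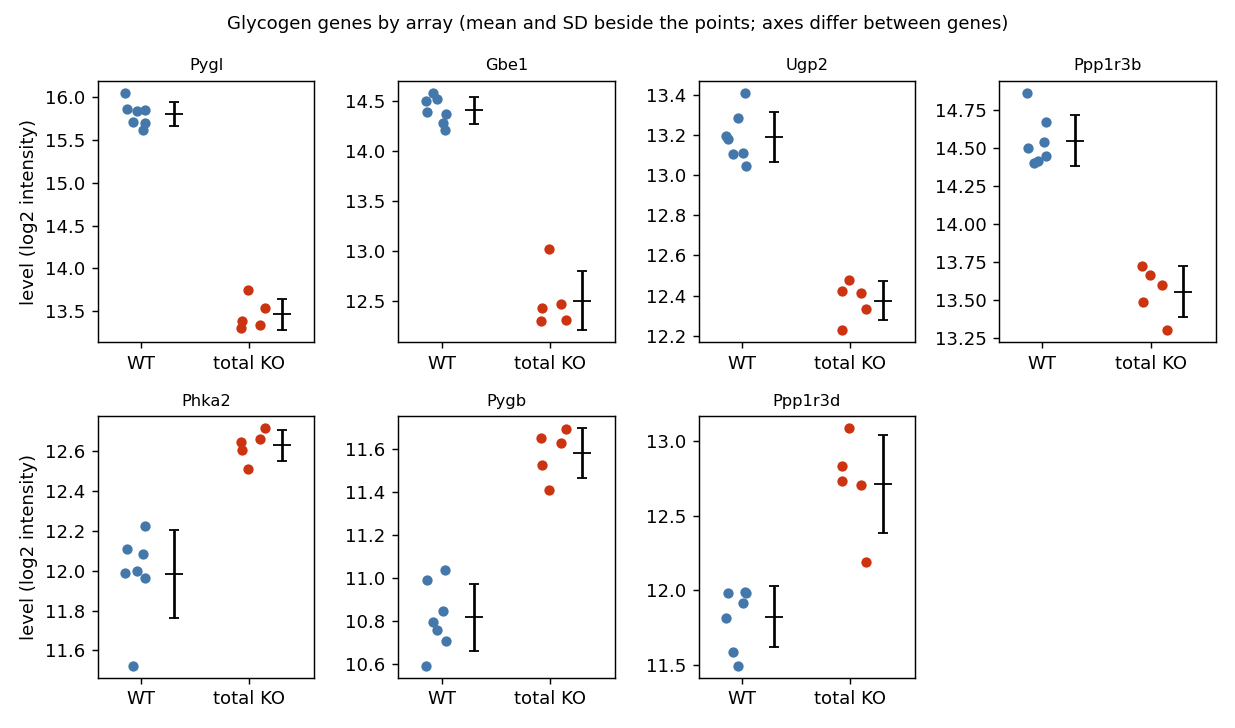
Levels (log2 intensity) of 7 glycogen genes on the 7 wild-type and 5 total ChREBP-KO arrays, with mean and SD beside the points; axes differ between genes. Of these, 4 (Pygl, Gbe1, Ugp2, Ppp1r3b) lie lower on all KO arrays and the others (Phka2, Pygb, Ppp1r3d) higher.

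Fatty acid oxidation shifted upward, with 10 of 29 genes higher and 1 lower and a list median of 0.20 (8 higher and 1 lower without wild-type replicates 2, 3 and 6). Cpt1a, which admits fatty acids to mitochondria, read 13.07, 12.61, 13.02, 12.89 and 13.22 against wild types of 11.85 to 12.28, and rose by 0.90 (SE 0.16, adjusted p = 0.00071). The partner transferase Cpt2 rose by 0.48 (SE 0.07, adjusted p = 0.00012). Oxct1, which lets cells burn ketone bodies, rose by 0.99 (SE 0.13, adjusted p = 1.5e-05), with KO values of 14.79 to 14.97 above wild types of 13.61 to 14.09. The peroxisomal thiolase Acaa1a rose by 0.54 (adjusted p = 8.2e-06). The list mean differed by 0.24, 0.10, 0.34 and 0.05 within the wash batches, and the named changes were all below 2-fold.

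Branched-chain amino acid breakdown moved in the same direction, with 10 of 22 genes higher and 1 lower and a list median of 0.24 (8 and 1 without wild-type replicates 2, 3 and 6). Both subunits of methylcrotonyl-CoA carboxylase were higher, Mccc1 by 0.64 (SE 0.08, adjusted p = 8.7e-06) and Mccc2 by 0.38 (adjusted p = 0.0085, a call lost with the liver marker level as a covariate). The mitochondrial transaminase Bcat2 rose by 0.91 (SE 0.19, adjusted p = 0.0031), Bckdhb, a subunit of the rate-setting dehydrogenase, by 0.42 (adjusted p = 0.00075) and Ivd by 0.42 (adjusted p = 0.0007). Downstream of these, citric acid cycle genes (4 of 20 higher, 0 lower) and respiratory chain genes (5 of 43 higher, 0 lower) gave medians of 0.06 and 0.07. Without wild-type replicates 2, 3 and 6 these counts became 1 and 0, and the increases were 0.16 to 0.36 in size.

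Cholesterol synthesis had 9 of 24 genes higher and 0 lower, with the highest median of the pathway lists at 0.26 and a list mean that differed by 0.17, 0.28, 0.33 and 0.46 within the wash batches. Msmo1, a sterol methyl oxidase, read 13.93, 13.89, 13.96, 13.83 and 14.27 against wild types of 12.77 to 13.15 and rose by 0.97 (SE 0.10, adjusted p = 6.4e-07). Insig1, which holds the SREBP escort in the endoplasmic reticulum, rose by 0.99 (SE 0.17, adjusted p = 0.00042), and Hmgcs1, an early enzyme of the pathway, rose by 0.82 (SE 0.16, adjusted p = 0.0014). The count of higher genes was 4 without wild-type replicates 2, 3 and 6 and 3 without KO replicate 1. Msmo1 was among the 15 increases with the smallest p-values in the whole comparison.

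Among lipogenic and adipogenic transcription factors, 4 of 26 were lower and 6 higher (3 and 4 without wild-type replicates 2, 3 and 6). Srebf1, which encodes the insulin-driven lipogenic factor SREBP-1, read 16.04, 16.34, 16.03, 15.98 and 16.25 against wild types of 16.70 to 16.93, and fell by 0.71 (SE 0.10, adjusted p = 4.5e-05). Bhlhe40 (Dec1), a repressor of the clock, fell by 1.75 (SE 0.21, adjusted p = 4.1e-06). Ppargc1b, a coactivator of SREBP and of mitochondrial genes, fell by 0.63 (adjusted p = 0.0059), though its groups overlapped. The factors Klf15, Nfib and the LXRα gene Nr1h3 rose by 0.57, 0.40 and 0.40 (adjusted p = 0.001, 0.00095 and 0.0034). Pparg, the master regulator of fat cells, differed by 0.14 (SE 0.09, adjusted p = 0.45). In the clock list, 3 of 21 genes were lower and 2 higher (2 and 2 without those arrays); Per2 rose by 0.97 (adjusted p = 0.00052) and Rora by 0.49 (adjusted p = 0.0001).

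Of the 11 AMPK genes, 4 were lower and 0 higher, a count that was the same without wild-type replicates 2, 3 and 6. The β1 subunit Prkab1 read 8.75, 8.89, 8.72, 8.67 and 8.83 against wild types of 9.27 to 9.80, and fell by 0.72 (SE 0.08, adjusted p = 9.8e-07). The activating kinase Camkk2 fell by 0.61 (SE 0.10, adjusted p = 0.00032), Prkaa2, a catalytic subunit, by 0.57 (adjusted p = 0.0060) and Prkag3 by 0.83 (adjusted p = 0.011). Prkab1 and Camkk2 lie on chromosome 5, as does Mlxipl, as described below.

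In insulin signaling, 1 of 32 genes was lower and 6 higher (1 and 5 without wild-type replicates 2, 3 and 6), and the called members included scaffolds and feedback genes. The adaptor Sh2b2 fell by 1.40 (SE 0.18, adjusted p = 1.8e-05), and the fat-cell insulin receptor substrate Irs3 rose by 0.82 (SE 0.11, adjusted p = 3.2e-05). Foxo1, held out of the nucleus by insulin, rose by 0.60 (SE 0.10, adjusted p = 0.00023), and Pde3b, the phosphodiesterase through which insulin blunts lipolysis, by 0.56 (adjusted p = 0.00038). In cAMP signaling, 1 of 38 genes was lower and 5 higher, or 15.8% called against 9.22% of all genes, with a median of 0.02. With the liver marker level as a covariate the counts were 1 and 4 and the median was -0.0648. The beta3-adrenergic receptor Adrb3 rose by 1.23 (SE 0.16, 2.34-fold, adjusted p = 1.7e-05), with KO values of 16.08 to 16.38 above wild types of 14.69 to 15.17. The catalytic subunit Prkaca and the regulatory subunit Prkar2b of protein kinase A rose by 0.43 (adjusted p = 0.00033) and 0.56 (adjusted p = 0.0034). Adcy10, the soluble adenylyl cyclase, went the other way and fell by 4.68 (SE 0.20, adjusted p = 4e-12), from wild types of 10.59, 11.22 and 11.51 to KO values of 6.32, 6.33, 6.24, 6.68 and 6.75.

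Of the thermogenic genes, 3 of 26 were lower and 2 higher, with a median of -0.05. Ucp1 lay between 4.49 and 5.15 in both groups, near the background. The largest increase of the list was Dio2, which activates thyroid hormone within the cell, at 10.20, 10.77, 10.94, 10.16 and 11.62 in KO fat against 7.52, 8.13 and 8.38 in wild types, a rise of 2.62 (SE 0.39, 6.15-fold, adjusted p = 8.5e-05). The potassium channel Kcnk3 fell by 3.31 (SE 0.20, adjusted p = 3.4e-10). Fgf21, a fasting- and glucose-responsive hormone, read 7.21, 6.85, 7.47, 6.03 and 7.15 in KO fat and 9.38, 10.13 and 10.42 in wild types, and fell by 3.11 (SE 0.37, 8.63-fold, adjusted p = 5.9e-06). Among adipokines, 3 of 23 were higher and 0 lower (2 and 0 without wild-type replicates 2, 3 and 6). Adiponectin (Adipoq) was 0.25 apart (SE 0.13, adjusted p = 0.28).

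Among the unfolded protein and amino acid stress genes, Asns, which makes asparagine, rose by 0.79 (SE 0.15, adjusted p = 0.0014), Psat1, in serine synthesis, by 0.64 (adjusted p = 7.9e-05) and Sesn2 by 0.98 (adjusted p = 4.4e-06), while Psph, also in serine synthesis, fell by 0.55 (adjusted p = 7.6e-05) and Chac1 by 0.98 (adjusted p = 0.00096). Psph lies on chromosome 5, as does Mlxipl, at -5.34 Mb from the Mlxipl probe. Over the list, 3 of 29 were lower and 5 higher. Without wild-type replicates 2, 3 and 6 the counts were 3 and 4. For glucocorticoid-responsive genes 3 of 22 were lower and 4 higher (4 and 1 without those arrays), with Hsd11b1, which regenerates active glucocorticoid in fat, falling by 1.11 (SE 0.20, adjusted p = 0.00069). Pgm3 of the hexosamine pathway fell by 0.91 (adjusted p = 0.00057), and 2 of 12 genes of that pathway were lower and 1 higher (1 and 0 without those arrays). The carbonic anhydrase Car6 was not well above background on any KO array and was at least 2.47-fold lower than in wild type (adjusted p = 3.8e-05). Immediate early genes had 2 lower and 2 higher of 22, or 18.2% called. Oxidative stress defense had 2 lower and 1 higher of 27, or 11.1% called. Over all genes the share was 9.22%. Without those arrays the counts were 2 lower and 1 higher, and 0 lower and 4 higher.

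Markers of the cell types of fat were examined to see whether cell composition moved with genotype. Adipocyte markers were higher, 7 of 14, with 0 lower and a list median of 0.30 (6 higher without wild-type replicates 2, 3 and 6), and the list mean was 16.66 to 16.76 on the KO arrays and 16.04 to 16.37 on the wild types. Part of this count is Pck1, Adrb3 and Lpl, described above. Lipe (-0.06) and Retn (0.06) were not called. Fabp4 was not called on its brightest probe (0.08), and its other probe rose by 0.39 (adjusted p = 0.011). Fat progenitor markers had 2 of 14 lower and macrophage markers 1 of 18 lower (0 without wild-type replicates 2, 3 and 6), and no endothelial, lymphocyte or mesothelial marker was called. Interferon-responsive genes had 0 of 23 called by limma, 9 at an unadjusted p below 0.05, and a median of -0.21; 6 were called lower with the 12 arrays alone and also with array weights. Complement had 1 of 26 lower and a median of -0.30. Collagens and matrix had 1 of 33 higher, and cell division 2 of 21 lower (1 without those arrays), one of which, Hmmr, fell by 2.10 (SE 0.13, adjusted p = 6.4e-10). Liver markers were 3 lower and 1 higher of 16, with a median of -1.90. Without wild-type replicates 2, 3 and 6 these became 0 lower, 1 higher and -0.55. Albumin ran from 10.49 to 15.30 over wild-type arrays against 10.48 to 10.81 in KO fat.

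Beyond the pathway lists, the smallest p-value of the comparison was that of Ptges, prostaglandin E synthase, at chr2:30747838-30747897 (mm9). It read 10.60, 11.06, 10.71, 10.71 and 11.26 in KO fat and 14.16, 14.31 and 14.39 in wild types, and fell by 3.44 (SE 0.11, 10.9-fold, adjusted p = 3.6e-14). A second Ptges probe fell by 3.35 (adjusted p = 4e-12). The brightest of the 3 fell by 0.69 (adjusted p = 9e-06), so the size of the change depended on the probe. Other large falls were in the parathyroid hormone receptor Pth1r (-3.76, SE 0.22, adjusted p = 2.8e-10), the proton channel Hvcn1 (-3.62, SE 0.21, adjusted p = 2.3e-10), Oscp1 (-3.32, SE 0.17, adjusted p = 4.3e-11), the kinase Sbk1 (-2.64, SE 0.13, adjusted p = 2.9e-11) and the pyrophosphate transporter Ank (-2.08, SE 0.12, adjusted p = 1.8e-10). In Hephl1 and on 1 probe of Taf6, 4 of the 5 KO arrays sat near 5 to 6 and KO replicate 7 at 8.97 and 9.90, so their differences of -4.31 and -3.96 were uneven between mice. The other Taf6 probe fell by 0.46.

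Increases outside the lists included the neuronal gene Lrrtm1, at 9.64, 8.46, 9.46, 8.67 and 9.30 against wild types of 6.23 to 6.90 (2.55, SE 0.27, adjusted p = 7.3e-07), the imprinted gene Nap1l5 (1.95, SE 0.21, adjusted p = 9.1e-07) and the keratin Krt79 (1.88, SE 0.25, adjusted p = 2.2e-05). Nnmt, which methylates nicotinamide, rose by 1.18 (SE 0.10, adjusted p = 2.7e-08), the heme enzyme Alas1 by 0.81 (SE 0.08, adjusted p = 7.4e-07) and the tyrosine-breakdown enzyme Gstz1 by 0.85 (SE 0.07, adjusted p = 7.1e-08). On their brightest probes the rise was 1.43 for Nnmt (adjusted p = 3.7e-08) and 0.67 for Gstz1 (adjusted p = 1.8e-05). Rnf11, an E3 ligase gene, had the smallest p of the increases, with a rise of 0.85 (SE 0.06, adjusted p = 2.5e-09).

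The ChREBPβ line served as a comparison, since its KO lacks only the β isoform and has controls of its own. Effects in the lines differed for 898 genes by brightest probe, 3.4% of those tested, when the difference of the KO effects was tested. Slc2a5 differed by -1.32 in the ChREBPβ line (adjusted p = 0.30, not called) and by -6.74 in the total line, a difference of effects of -5.42 (adjusted p = 1.1e-06). For Mlxipl the ChREBPβ line gave -0.73 (adjusted p = 0.15, not called), a difference of -1.02 (adjusted p = 0.0037). Pck1 was -0.04 apart in that line (difference 2.48, adjusted p = 0.0016), and Elovl6 -0.08 apart (difference -3.26, adjusted p = 6.7e-08). The liver marker mean was higher in that line, from 11.51 to 16.07, than in the total ChREBP line, where it was 8.44 to 13.54, and its part in these differences was not tested.

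Genes near Mlxipl on chromosome 5 were then examined by distance from its probe. Within 5 Mb on the side of higher coordinates, 33 of 133 genes were called (24.8%), 17 lower and 16 higher, while on other chromosomes 9.19% were called. The share was 14.9% within 5 Mb on the other side (7 of 47, all higher), 5.19% at 5 to 10 Mb on the higher side and 15.4% at 5 to 10 Mb on the other side (6 of 39). Of the 133 genes, 15% also differed from the ChREBPβ line, against 3.35% on other chromosomes. Nearby called genes were Sh2b2 at 1.08 Mb, Irs3 at 2.47 Mb, Agfg2 at 2.48 Mb (a rise of 0.89, adjusted p = 1.6e-07) and Ap4m1 and Taf6 at 3.01 Mb. Adap1 at 4.13 Mb fell by 2.57 (adjusted p = 4.4e-10). Hvcn1, Camkk2 and Prkab1 lie farther off, at -12.9, -12.4 and -19.1 Mb. In the window that holds them, -20 to -10 Mb, 10 of 208 genes were lower and 8 higher. That is 8.65% called, near the 9.19% of other chromosomes. The windows were chosen after the values were seen, and the difference between these shares was not tested.

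**Figure D5:**
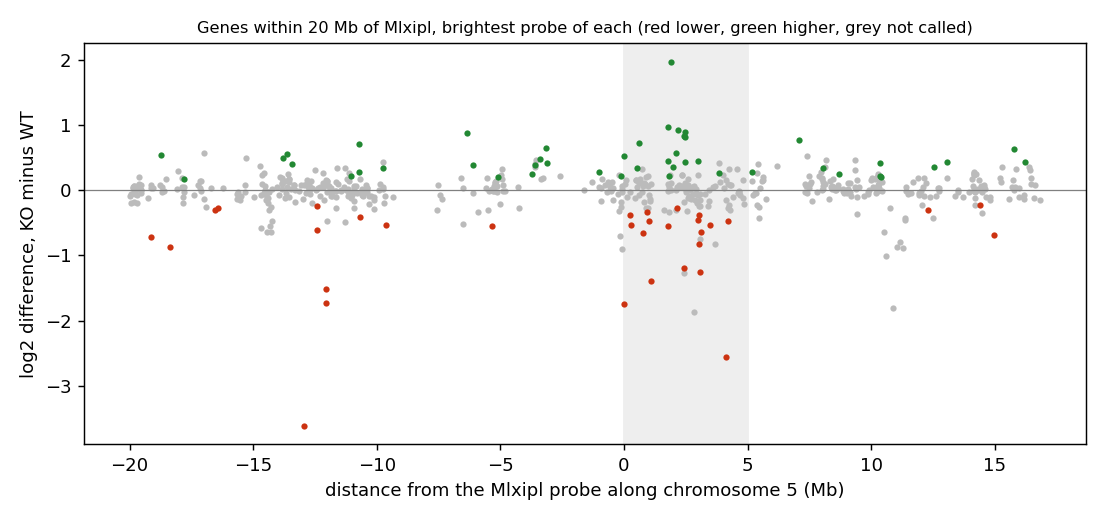
Log2 difference (KO minus WT) of each gene within 20 Mb of the Mlxipl probe along chromosome 5, by the brightest probe, with red for lower, green for higher and grey for not called. The shaded 0 to 5 Mb holds 33 called genes of 133, which is 24.8%.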

How the data were processed

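Perigonadal fat RNA was hybridized to Agilent 1-color mouse arrays, read with Agilent Feature Extraction 10.10.1.1 (per the labels). The deposited files hold scanner intensity values (median signal) for each spot, with flag columns, and the authors' log2 values in the series table, made by quantile normalization of log2 signals. Here, deposited median signals of the 40561 probes of that table were taken from the scanner files, flagged outlier spots were set to missing (1467 spots), log2-transformed and quantile-normalized over 25 arrays. Differences were fitted with limma 3.58.1 in R 4.3.3 (lmFit and eBayes on group and 4 wash batches, 18 residual degrees of freedom), with Benjamini-Hochberg adjustment over all probes. Precision is limited by the number of arrays (5 and 7). Pathway and marker lists (33 and 14, 856 of 901 symbols tested) were counted by the brightest probe, and up to 8 called genes a list with smallest p were named, together with the 15 smallest p and 10 largest changes in each direction whose groups did not overlap and which changed at least 1.5-fold, and the Mlxipl probes. A few list members that were not called, such as Scd1, Txnip and Pparg, were also named by hand for their role in a pathway. The members and lists were chosen with earlier results of these data known. On simulated data with known changes, 59.7%, 91% and 100% of log2 changes of 0.5, 1 and 2 were recovered, with 12 false calls in 40561 probes. The simulation changed far fewer probes than were called here, so its false calls are to be read against that small set. It held independent noise and no organ RNA or outlying arrays, so these rates need not hold for the real arrays. Replicate numbers were not used to pair the samples. Correlations of same-numbered deviations ran from -0.240 to 0.136, over few shared numbers, and cannot settle whether any samples were paired. Promoters came from RefSeq (GRCm38.p6), and probe positions from the files (mm9). A few genes that met these rules are counted but their values are not reported here.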

Additional observations from a re-analysis of the deposited data

Results flagged for a closer look

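Arrays that lay far from the others of their group were sought by the gap between the highest or lowest array and its nearest neighbor, over 94 list means and 390 sets of gene values; chance gives about 1 in 20 such cases. This picked out 13 list means and 31 gene values. Wild-type replicate 2 accounted for 12 of the gene values, and the remainder came mainly from KO replicate 7.

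For list means, wild-type replicate 2 was lowest for pentose phosphate and NADPH genes (14.09), cholesterol synthesis (12.07), and lipogenic and adipogenic transcription factors (11.70). It was highest for unfolded protein and amino acid stress (12.50), oxidative stress defense (13.71), carbonic anhydrases (9.01) and epididymis markers (11.67). Wild-type replicate 8 was highest for glucocorticoid-responsive genes (12.99) and smooth muscle markers (13.24). KO replicate 7 was highest for immediate early genes (11.88), oxidative stress defense (13.78) and pancreas markers (8.07), and KO replicate 4 for testis markers (8.79).

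For single genes, wild-type replicate 2 read 16.35 for Acsl1, 11.36 for Adora1, 13.37 for Fdft1, 12.67 for Hvcn1, 12.46 for Idi1, 15.44 for Ndufa2, 15.82 for Ndufb8, 11.52 for Phka2, 17.64 for Scd1, 10.23 for Slc25a44, 10.34 for the dimmer Taf6 probe and 15.49 for Txnip. Wild-type replicate 6 read 12.94 for Rnf11, 10.85 for Sesn2 and 16.70 for Srebf1. KO replicate 7 read 13.02 for Gbe1, 8.97 for Hephl1, 10.06 for Ier3, 14.05 for Jun, 13.72 for Krt79, 17.03 for Me1, 16.14 for Mpc1, 15.51 for Ndufc1, 15.17 for Pkm, 15.91 for Plin2, 13.69 for Fdft1, 9.90 for Taf6, 15.60 for Txnip and 12.56 for Txnrd1. KO replicate 4 read 13.70 for Gm6484 (Angptl8) and KO replicate 2 read 8.33 for Crtac1.

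The effect of the KO differed between the total ChREBP and ChREBPβ lines for 110 of 189 called genes chosen by the naming rules, and 58 of the 110 had the same sign in both. The genes were chosen for their change in the total line, so the larger size there is set in part by that choice. Values of 107 of them follow, as the total minus the ChREBPβ effect on the log2 scale, and liver marker levels differed between the lines as given in the report. No cause was tested. In sugar transport and glycolysis the difference was -5.42 for Slc2a5, -1.33 for Slc2a4, -1.28 for Hk2, -0.35 for Gapdh, -1.39 for Eno1, -1.43 for Eno1b, -1.09 for Pkm, -0.50 for Ldha and 2.12 for Slc2a13. In pyruvate and pentose metabolism it was -2.07 for Pdk1, -1.38 for Pdha1, -1.16 for Pdhb, -0.72 for Dlat, -0.82 for Mpc1, -0.72 for Pcx, 2.48 for Pck1, -1.79 for Tkt, -0.36 for Taldo1, -1.04 for Me1 and 0.55 for Idh1. In glycerol 3-phosphate and lipid synthesis it was -1.14 for Gpd1, -2.43 for Gpd2, 0.89 for Agpat9, -3.26 for Elovl6, -1.82 for Acaca, -0.93 for Acacb, -1.55 for Acly, -0.86 for Slc25a1, -0.32 for Fasn, -0.89 for Thrsp and -1.18 for Mid1ip1.

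For glycogen genes the difference was -2.36 for Pygl, -1.67 for Gbe1, -0.63 for Ugp2, -1.02 for Ppp1r3b, 0.61 for Ppp1r3d and 0.62 for Phka2. For oxidation of fatty acids, ketone bodies and branched-chain amino acids it was 1.02 for Cpt1a, 0.49 for Cpt2, 0.38 for Echs1, 0.58 for Acaa1a, 0.76 for Acaa1b, 0.82 for Oxct1, 1.25 for Bcat2, 0.47 for Bckdhb, 0.43 for Ivd, 0.61 for Mccc1, 0.50 for Mccc2, 0.53 for Acadsb and 0.45 for Aldh6a1. For cholesterol synthesis it was 0.92 for Msmo1. On the lipid droplet and in lipid uptake it was -1.31 for Plin2, 0.46 for Lpl and -1.87 for Gm6484.

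For transcription factors and the clock the difference was -1.02 for Mlxipl, -0.36 for Max, -0.51 for Srebf1, -1.16 for Bhlhe40, 0.67 for Klf15, 1.05 for Per2 and 0.53 for Rora. For signaling genes it was -0.98 for Sh2b2, 0.72 for Irs3, 0.54 for Foxo1, 0.62 for Pde3b, 0.37 for Inppl1, 0.69 for Arrdc3, 1.38 for Adrb3, -4.04 for Adcy10, -0.77 for Prkab1, -1.33 for Prkag3 and -0.61 for Camkk2. For stress, hormone and other listed genes it was -3.27 for Fgf21, -3.58 for Kcnk3, -1.36 for Gadd45a, 0.88 for Asns, 0.59 for Psat1, -0.56 for Psph, 0.74 for Sesn2, 0.48 for Edem1, 0.62 for Cat, 0.46 for Car1, -1.58 for Car6 and -1.80 for Hmmr.

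Among the remaining genes the difference was -4.94 for Hephl1, -4.08 for Taf6, -3.63 for Hvcn1, -3.50 for Ptges, -3.14 for Oscp1, -3.06 for Pth1r, -2.66 for Sbk1 and -2.11 for Ank. It was 0.65 for Rnf11, 0.51 for Emc9, 0.79 for Epb4.1l1, 0.81 for Alas1, 0.85 for Ap4m1, 0.85 for Gstz1, 0.86 for Agfg2, 0.90 for Rce1, 0.98 for Adam12, 1.16 for Pde4dip, 1.21 for Nnmt, 1.40 for Ptgfr, 1.49 for Art3, 1.74 for Nap1l5 and 2.82 for Lrrtm1. The brightest probes of Pde4dip and Art3 were not called in the total line (0.15 and 0.35). On the brightest Ap4m1 probe the rise was 0.45, and the difference of effects was not called (adjusted p = 0.197 by limma). The brightest Taf6 probe differed by -0.46 in the total line and by 0.0084 in the ChREBPβ line.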

How the results depend on the processing

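The count of genes called by any probe was 2836. It lay between 1943 and 3098 under the series table, 75th-percentile scaling, normexp background, the filter on dim probes, the 12 arrays alone, no batch term and the liver marker level as a covariate, and was 4209 with array weights, of which the lower genes numbered 1618. Leaving out single arrays gave 1992 to 2846 genes, and 1173 to 1843 higher genes. Requiring at least 1.5-fold left 996 genes (474 higher and 523 lower). Leaving out wild-type replicates 2, 3 and 6 together, an alternative chosen after seeing the data, gave 1889 genes, with 924 higher and 966 lower. With the liver marker level as a covariate, also chosen after seeing the data, 956 were higher and 989 lower. Same-numbered samples were not treated as pairs in the main fit. The replicate block gave 1998 genes, with medians of -0.0754 for glycogen, 0.0972 for the clock, 0.0725 for unfolded protein and amino acid stress and -0.66 for kidney tubule markers. Of 2328 gene values over the alternatives other than single-array removal, 2160 kept their direction and call, 165 lost the call and 3 reversed; for single-array removal 2170 of 2328 kept both.

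Medians moved beyond the spread in many lists under at least 1 alternative, and the cause was not tested. The respiratory chain was 0.0152 with 75th-percentile scaling. The mean over probes gave 0.0651 for hexosamine and 0.0143 for triglyceride synthesis. Without wild-type replicates 2, 3 and 6, the median was -0.069 for glycogen, -0.26 for fatty acid synthesis, 0.12 for triglyceride synthesis and -0.55 for liver markers. With the liver covariate it was 0.49 for fructose and polyol enzymes, -0.13 for glycogen, -0.0648 for cAMP signaling, 0.25 for carbonic anhydrases, 0.20 for adipocyte markers, -0.59 for smooth muscle markers and -0.0662 for liver markers. Leaving out single arrays gave -0.0417 to 0.022 for the ChREBP network, -0.0696 to -0.00314 for glycogen, 0.000732 to 0.0669 for hexosamine, -0.55 to -0.24 for pyruvate metabolism, -0.25 to -0.14 for fatty acid synthesis, 0.00851 to 0.10 for lipolysis, 0.18 to 0.29 for branched-chain amino acid breakdown, 0.0854 to 0.22 for the clock and -0.14 to 0.19 for skeletal muscle markers. Scd1 changed sign around 0, at -0.0449 with the mean over probes, -0.0327 without wild-type replicates 2, 3 and 6 and -0.0408 with the liver covariate, and ranged from -0.000724 to 0.0917 over single-array removal.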
